A study of Mus musculus with 6 samples.

Results

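The Hox genes are the homeobox genes of the 4 mammalian clusters, Hoxa, Hoxb, Hoxc and Hoxd, and were described here in cultured keratinocytes of control mice and of mice labelled as knockouts of Ovol1 or of both Ovol1 and Ovol2. A gene was a member if its symbol was Hoxa, Hoxb, Hoxc or Hoxd followed by digits alone and if a probe set with that symbol and no other measured it. By this rule 37 Hox genes were found among the 19938 genes of the array: 10 of Hoxa, 9 of Hoxb, 9 of Hoxc and 9 of Hoxd. Each was measured by 1 probe set. Hoxb8 has no probe set that carries its symbol alone and is not among the 37.

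Hox proteins are homeodomain transcription factors that give cells a memory of their place along the body axis. The order of the genes along a cluster, counted by paralogue group from the anterior to the posterior end, follows the order in which they are expressed along the embryo, and cells of the skin keep part of this code in culture. Polycomb proteins hold the unused end of a cluster silent, retinoic acid opens the anterior end, and TALE homeodomain proteins such as Pbx and Meis bind DNA together with Hox proteins. Ovol1 and Ovol2 are zinc finger repressors of epithelial cells, and the loss of both is known to lower epithelial identity in epidermis.

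The study hybridised 6 arrays, 2 for each of 3 groups, and each array held RNA of 2 mice. Control mice were Ovol2flox/+; Ovol1+/- or Ovol2flox/+;K14-Cre, so the controls carried 1 floxed Ovol2 allele and either 1 Ovol1 null allele or the Cre transgene. The Ovol1 KO mice were Ovol1-/-, with no Ovol2 allele or Cre named for them, and the Ovol1/2 DKO mice were Ovol2flox/-;K14-Cre; Ovol1-/-. All groups were labelled as C57BL/6, female and E18.5, a stage shortly before birth. Skin keratinocytes were cultured for 2 to 5 days without added calcium. K14-Cre acts in cells that express keratin 14, the basal keratinocytes, so the deletion of floxed Ovol2 is conditional, while the Ovol1 deletion is in every cell. Values are log2(intensity + 16) of the deposited probe set intensities, and a difference of 1 on this scale is a doubling of intensity + 16. With 2 arrays a group, the smallest two-sided p that an exact permutation test can give is 0.333, so the p-values below come from limma's moderated test over all 19938 genes with Benjamini-Hochberg adjustment, called at an adjusted p under 0.05. The labels call the arrays biological replicates, and p-values measure the spread between these arrays.

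The labels were checked on the targeted genes. Ovol1 was at 9.64 and 9.95 in control, at 10.75 and 9.80 in the group labelled Ovol1 KO, and fell to 5.96 and 6.22 in Ovol1/2 DKO (limma adjusted p = 0.008 against control). The Ovol1 signal of the group labelled Ovol1 KO was thus not below that of control, and the group is called by its label throughout. Where the Ovol1 and Ovol2 probes lie relative to the deleted parts was not known here. Ovol2 lay between 6.97 and 8.38 on all 6 arrays, with no difference between the groups beyond their spread. Xist, which female cells transcribe, was at 4.43 on control array 1 and 4.54 on labelled Ovol1 KO array 1, against 10.99 to 11.43 on the other 4 arrays. The Y-linked Eif2s3y was at 13.80 on labelled Ovol1 KO array 1 alone. Both groups set against the Ovol1/2 DKO therefore hold 1 array without Xist signal, and the Hox results are given with and without those 2 arrays. All 10 keratinocyte markers were above background on every array, and their summed intensity lay between 32907 and 44440, with the highest sums on the Ovol1/2 DKO arrays.

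A background level was taken from the probe sets that carry no gene symbol: their highest array median, 6.20. By this level 26 of the 37 Hox genes were above background on all 6 arrays, 8 of Hoxa, all 9 of Hoxb, 5 of Hoxc and 4 of Hoxd. For comparison, 12784 of the 19938 genes were above it on all arrays. Hoxc11, Hoxc12 and Hoxd12, all of paralogue groups 9 to 13, were above it on no array, and no fold is given for them. Hoxa11, Hoxc10, Hoxd9 and Hoxd10 passed it on 1 or 2 arrays, Hoxd4 on 4, and Hoxa3, Hoxc13 and Hoxd8 on 5. Signal above this level is not proof of a transcript, and with the 75th percentile of the same probe sets as the level 11 Hox genes were above it on all arrays.

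The promoters of 4 Hoxa genes are shown first because the largest group of differences below lies in this cluster. Hoxa2, Hoxa5 and Hoxa7 were higher on both Ovol1/2 DKO arrays than on any other array, and Hoxa11, a gene of the posterior end, was not. Each line gives the 250 bases before the RefSeq gene start, 5′ to 3′ on the gene's strand, which is the minus strand for all 4, with CpG dinucleotides in capitals. The positions in GRCm38.p6 are chr6:52164832-52165081 for Hoxa2, chr6:52204588-52204837 for Hoxa5, chr6:52218574-52218823 for Hoxa7 and chr6:52245811-52246060 for Hoxa11.
Hoxa2: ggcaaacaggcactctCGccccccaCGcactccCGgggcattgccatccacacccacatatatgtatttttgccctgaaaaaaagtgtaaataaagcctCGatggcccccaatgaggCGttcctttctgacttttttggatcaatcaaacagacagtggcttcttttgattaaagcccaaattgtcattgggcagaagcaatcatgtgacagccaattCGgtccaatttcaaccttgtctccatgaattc
Hoxa5: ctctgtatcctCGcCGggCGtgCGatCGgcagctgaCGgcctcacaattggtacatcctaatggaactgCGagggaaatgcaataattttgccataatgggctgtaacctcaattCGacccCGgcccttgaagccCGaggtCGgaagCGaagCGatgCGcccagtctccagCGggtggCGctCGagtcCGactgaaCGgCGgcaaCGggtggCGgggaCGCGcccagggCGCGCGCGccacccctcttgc
Hoxa7: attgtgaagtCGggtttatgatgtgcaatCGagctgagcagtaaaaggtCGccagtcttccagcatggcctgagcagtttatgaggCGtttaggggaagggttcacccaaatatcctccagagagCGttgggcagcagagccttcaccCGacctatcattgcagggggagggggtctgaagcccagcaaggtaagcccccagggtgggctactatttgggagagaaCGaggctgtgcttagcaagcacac
Hoxa11: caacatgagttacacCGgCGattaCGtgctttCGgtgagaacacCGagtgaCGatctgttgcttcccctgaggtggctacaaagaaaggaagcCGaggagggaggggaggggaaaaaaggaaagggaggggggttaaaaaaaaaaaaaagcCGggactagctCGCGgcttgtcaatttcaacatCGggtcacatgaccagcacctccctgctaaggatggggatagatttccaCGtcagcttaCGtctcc
The Hoxa5 stretch holds 28 CpG dinucleotides, against 6 for Hoxa2, 7 for Hoxa7 and 13 for Hoxa11. Hoxa3 and Hoxa6, also higher on both Ovol1/2 DKO arrays than on any other, hold 18 and 24 in the 250 bases before their starts. The Hoxa3 stretch, chr6:52213068-52213317, lies between those of Hoxa6 and Hoxa7. It precedes the start of a long annotated span that overlaps Hoxa4, Hoxa5 and Hoxa6, and is not next to Hoxa2. The genes that were higher thus did not share a CpG content. Hoxa11 was above the background level on 1 array only, which limits its use as a contrast. RefSeq promoter windows of 300 bases, 250 before and 50 after the start, were at hand for 22 Hox genes, in 24 windows, and matched 21 of the 37 measured members. No window was given for Hoxa4, Hoxb2, Hoxb3, Hoxb5, Hoxb6, Hoxb7, Hoxb9, Hoxb13, Hoxc5, Hoxc6 and Hoxc8 to Hoxc13. The 24 Hox windows had a median CpG count of 14.5 and a median GC content of 57.7%, against 7 and 52.7% over 32851 windows of 27025 genes. The letters CCGTTA, a site bound by Ovol factors, were searched on both strands and were in 0 of the 24 Hox windows and in 2.76% of all windows. CAGGTG, the E-box that Zeb factors bind, was in 0 of the 24 and in 20.2% of all windows. Neither motif contains the other, and their absence says only that these letters are not in these windows.

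Between Ovol1/2 DKO and control, Hox genes of the anterior and middle parts of the Hoxa and Hoxc clusters had the largest differences, and none passed the test. Hoxa2 was higher by 1.42, Hoxc5 by 1.36 and Hoxa5 by 1.03 on the log2 scale, while the 13 genes of paralogue groups 9 to 13 that were above background on at least 1 array lay between -0.31 and 0.20. Of the 37 Hox genes 0 passed limma's adjusted p, where 2.02% of all genes did, 403 of 19938. At an unadjusted p under 0.05, 8 Hox genes were higher and 0 lower, where 5.07% of all genes were higher and 5.32% lower. The 8 were Hoxa2, Hoxa3, Hoxa5, Hoxa6, Hoxa7, Hoxc5, Hoxc6 and Hoxc8. Both Ovol1/2 DKO arrays lay above both control arrays for 15 Hox genes and below both for 1, Hoxd9, whose Ovol1/2 DKO arrays were under the background level. Among all genes these shares were 21.1% and 18.1%. Of the 15, Hoxd12 was above background on no array, and the control arrays of Hoxd4 lay about the background level, at 6.20 and 6.04.

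**Figure D1:**
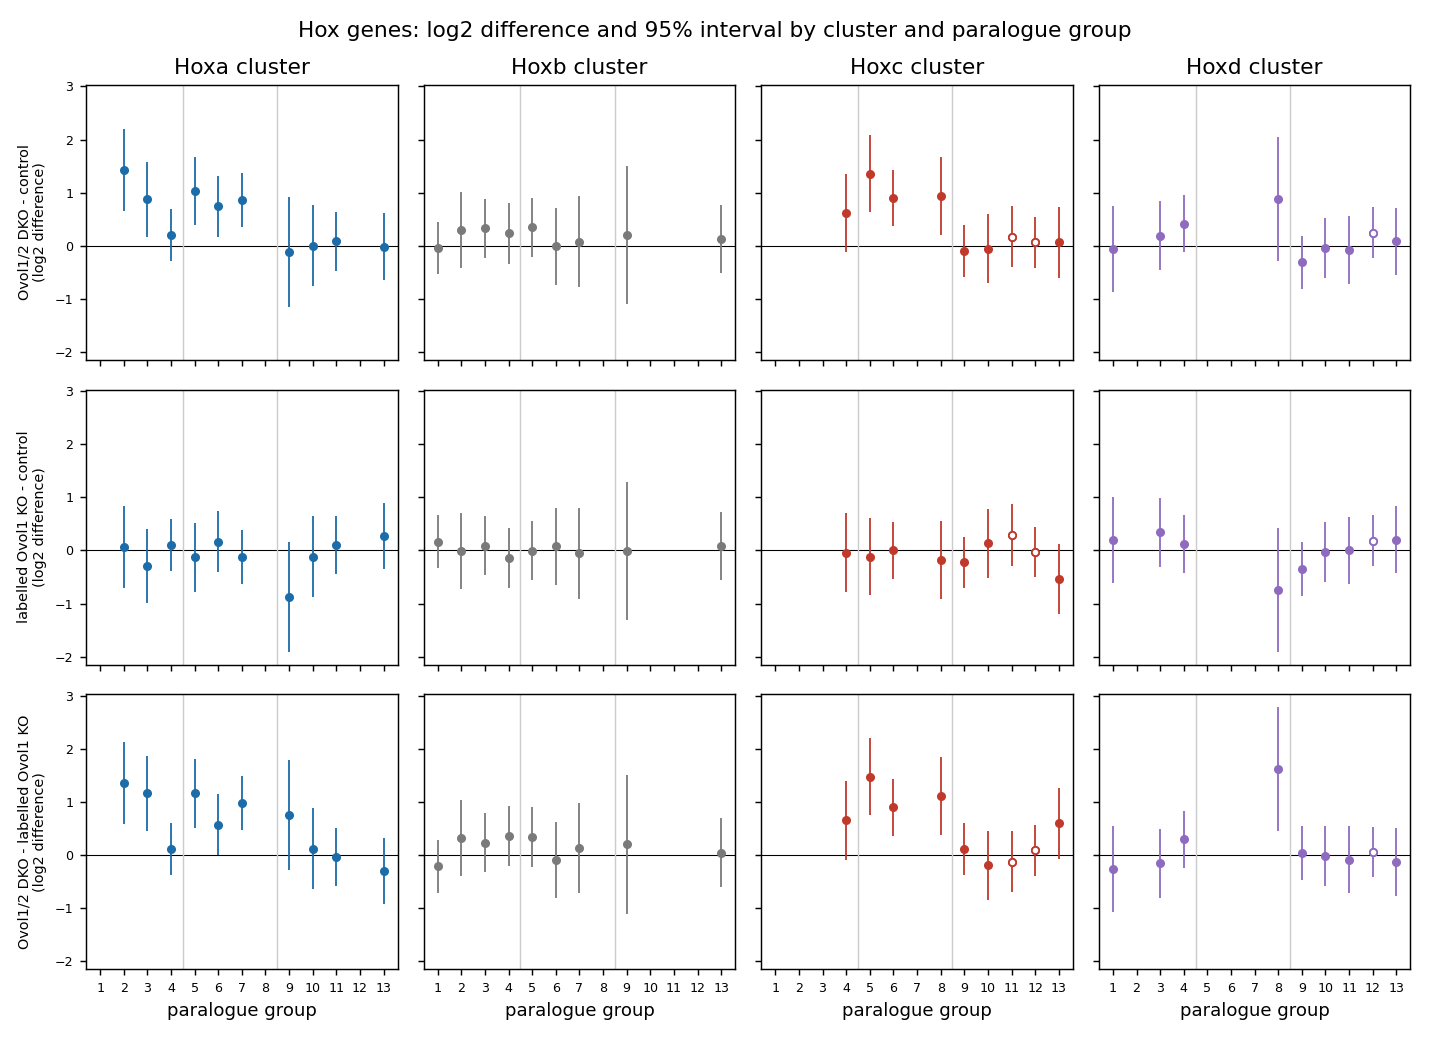
Log2 difference (vertical axis) against paralogue group (horizontal axis) for each Hox gene of the 4 clusters, in the 3 comparisons from top to bottom; bars are 95% intervals of the limma fit and grey lines part paralogue groups 1 to 4, 5 to 8 and 9 to 13. In the top and bottom rows Hoxa2 to Hoxa7 and Hoxc4 to Hoxc8 lie above 0, with Hoxa4 nearest to it at 0.21 and 0.11. Open points are genes above background on no array; the other 13 genes of groups 9 to 13 lie between -0.31 and 0.20 in the top row, and Hoxa9 and Hoxc13 reach 0.76 and 0.60 in the bottom row.

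Hoxa2, which patterns the hindbrain and the pharyngeal arches, had the largest difference from control in its cluster. It was at 7.45 and 6.48 on the control arrays, 7.11 and 6.95 on the labelled Ovol1 KO arrays, with 8.38 and 8.39 on the Ovol1/2 DKO arrays. Both Ovol1/2 DKO arrays were above the other 4, and the control arrays were 0.97 apart. The difference from control was 1.42 (SE 0.33, 95% interval 0.65 to 2.20), a 2.68-fold change in intensity + 16, with a limma adjusted p of 0.107. Without control array 1, which lacks Xist signal and has the higher Hoxa2 value, the difference was 1.91 and passed with a limma adjusted p of 0.023. Without control array 2 it was 0.94 (limma adjusted p = 0.350); in each of these fits the single control array was assumed to vary like the other groups.

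Hoxa3, known for the thymus and parathyroid, was at 6.96 and 6.44 in control, 6.72 and 6.10 in labelled Ovol1 KO, with 7.71 and 7.45 in Ovol1/2 DKO. The Hoxa3 signal was not far above the background level, and labelled Ovol1 KO array 2 was under it. Its difference from control was 0.88 (SE 0.29, limma adjusted p = 0.307).

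Hoxa5, which shapes the neck, thorax and lung, was at 8.80 and 8.73 on the control arrays, 8.999 and 8.28 on the labelled Ovol1 KO arrays, with 9.79 and 9.81 on the Ovol1/2 DKO arrays. The Ovol1/2 DKO arrays were 0.02 apart and stood above the other 4. The difference from control was 1.03 (SE 0.27, 95% interval 0.39 to 1.68), with a limma adjusted p of 0.161. In the RefSeq annotation the Hoxa3 gene span overlaps those of Hoxa4, Hoxa5 and Hoxa6, so their probe signals may not be separate. Hoxa4, inside the same span, differed from control by 0.21 (SE 0.20), and its Ovol1/2 DKO arrays, at 8.62 and 8.42, did not stand above labelled Ovol1 KO array 2 at 8.52.

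Hoxa6 was at 8.11 and 8.52 in control, 8.62 and 8.34 in labelled Ovol1 KO, with 9.19 and 8.92 in Ovol1/2 DKO, a difference from control of 0.74 (SE 0.24, limma adjusted p = 0.281). Hoxa7, known to hold back keratinocyte differentiation, was at 9.35 and 9.69 in control, 9.38 and 9.43 in labelled Ovol1 KO, with 10.49 and 10.28 in Ovol1/2 DKO. For both genes the Ovol1/2 DKO arrays were the highest of the 6, and for Hoxa7 the 4 other arrays lay between 9.35 and 9.69. The Hoxa7 difference was 0.87 (SE 0.21, 95% interval 0.36 to 1.38, limma adjusted p = 0.135).

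The posterior Hoxa genes had smaller differences. Hoxa10 was at 7.25 and 8.11 in control and 7.46 and 7.90 in Ovol1/2 DKO, a difference of 0.00 with a 95% interval of -0.76 to 0.77. For Hoxa13, which acts in the digits, it was -0.02, from -0.64 to 0.61. With 2 arrays a group, differences inside these intervals were not detectable, so a lack of change was not shown.

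The Hoxb cluster was the one with every measured gene above background, and its differences from control were small. The largest were 0.34 for Hoxb5 (SE 0.23, limma adjusted p = 0.868) and 0.33 for Hoxb3 (SE 0.23, limma adjusted p = 0.886). Hoxb5 was at 6.91 and 7.43 in control, 7.23 and 7.09 in labelled Ovol1 KO, with 7.51 and 7.51 in Ovol1/2 DKO. The groups were apart by little, since control array 2 lay just under the Ovol1/2 DKO arrays. Hoxb3 was at 9.63 and 9.99 in control, 9.72 and 10.08 in labelled Ovol1 KO, with 10.08 and 10.19 in Ovol1/2 DKO, and here too the Ovol1/2 DKO arrays only just passed the others.

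Hoxb9, a thoracic gene, varied more between replicates than between groups. It was at 8.91 and 10.37 in control, 9.05 and 10.22 in labelled Ovol1 KO, with 9.79 and 9.88 in Ovol1/2 DKO. Its 95% interval of the difference from control, -1.10 to 1.50, was the widest of the 37 Hox genes. In control and labelled Ovol1 KO the low Hoxb9 array was the one without Xist signal. Hoxb7, at 7.55 and 8.39 in control and 7.56 and 8.27 in labelled Ovol1 KO, split the same way. Replicate 2 was above replicate 1 in all 3 groups for 10 of the 37 Hox genes and for 19.9% of all genes. Of those 10, Hoxb3, Hoxb7, Hoxb9 and Hoxb13 were in Hoxb. Replicate 1 was above replicate 2 in all 3 groups for 9 of the 37 and for 28.1% of all genes.

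In the Hoxc cluster Hoxc4, Hoxc5, Hoxc6 and Hoxc8 were higher on both Ovol1/2 DKO arrays than on the other 4. Hoxc5 was at 7.78 and 7.04 in control, 7.51 and 7.06 in labelled Ovol1 KO, with 8.86 and 8.67 in Ovol1/2 DKO. Its difference from control was 1.36 (SE 0.30, 95% interval 0.63 to 2.08), a 2.56-fold change in intensity + 16, with a limma adjusted p of 0.101, the smallest of the Hox genes. Without control array 1 it was 1.73 and passed with a limma adjusted p of 0.048, and without control array 2 it was 0.99 (limma adjusted p = 0.437), with the spread again taken from the other groups.

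Hoxc6, a thoracic gene that is also active in the mammary line, was at 8.84 and 8.74 in control, 8.89 and 8.69 in labelled Ovol1 KO, with 9.49 and 9.90 in Ovol1/2 DKO. The 4 arrays of the other groups lay close together and below both Ovol1/2 DKO arrays. The difference from control was 0.90 (SE 0.22, 95% interval 0.37 to 1.43, limma adjusted p = 0.140). Hoxc8, which patterns thoracic vertebrae and motor neurons, was at 8.79 and 8.40, 8.82 and 8.01, and 9.62 and 9.44 in the same order of groups. Its difference from control was 0.93 (SE 0.31, limma adjusted p = 0.298). Hoxc4 was 0.62 higher than in control (SE 0.31, limma adjusted p = 0.641), and its lower Ovol1/2 DKO array, at 7.88, all but met control array 1 at 7.87.

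Hoxc9, the next gene along the cluster, was at 7.19 and 7.10 in control, 6.82 and 7.04 in labelled Ovol1 KO, with 7.15 and 6.94 in Ovol1/2 DKO. Its groups overlapped, and its 95% interval of the difference from control was -0.58 to 0.38. That of Hoxc8, 0.19 to 1.67, overlapped it, and a difference between these genes was not tested. Hoxc13, which drives hair shaft keratin genes, was at 6.81 and 6.36 in control, 6.36 and 5.74 in labelled Ovol1 KO, with 6.64 and 6.66 in Ovol1/2 DKO. It lay near the background level, and its difference of Ovol1/2 DKO from control was 0.06 (95% interval -0.60 to 0.73).

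In the Hoxd cluster Hoxd8 alone stood above the other 4 arrays on both Ovol1/2 DKO arrays. It was at 6.98 and 6.69 in control, 6.81 and 5.37 in labelled Ovol1 KO, with 8.09 and 7.34 in Ovol1/2 DKO. The Ovol1/2 DKO arrays were 0.75 apart, and the difference from control of 0.88 (SE 0.49, limma adjusted p = 0.712) was little larger than that gap. Hoxd4, next to Hoxd3 and overlapping its annotated span, was at 6.20 and 6.04 in control, 6.06 and 6.42 in labelled Ovol1 KO, with 6.68 and 6.39 in Ovol1/2 DKO, a difference from control of 0.42 (SE 0.23, limma adjusted p = 0.693) close to the background level. Hoxd13, which acts in digits and the genital tubercle, was at 8.52 and 8.77, 8.62 and 9.07, and 8.48 and 8.96, with replicate 2 the higher in each group.

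**Figure D2:**
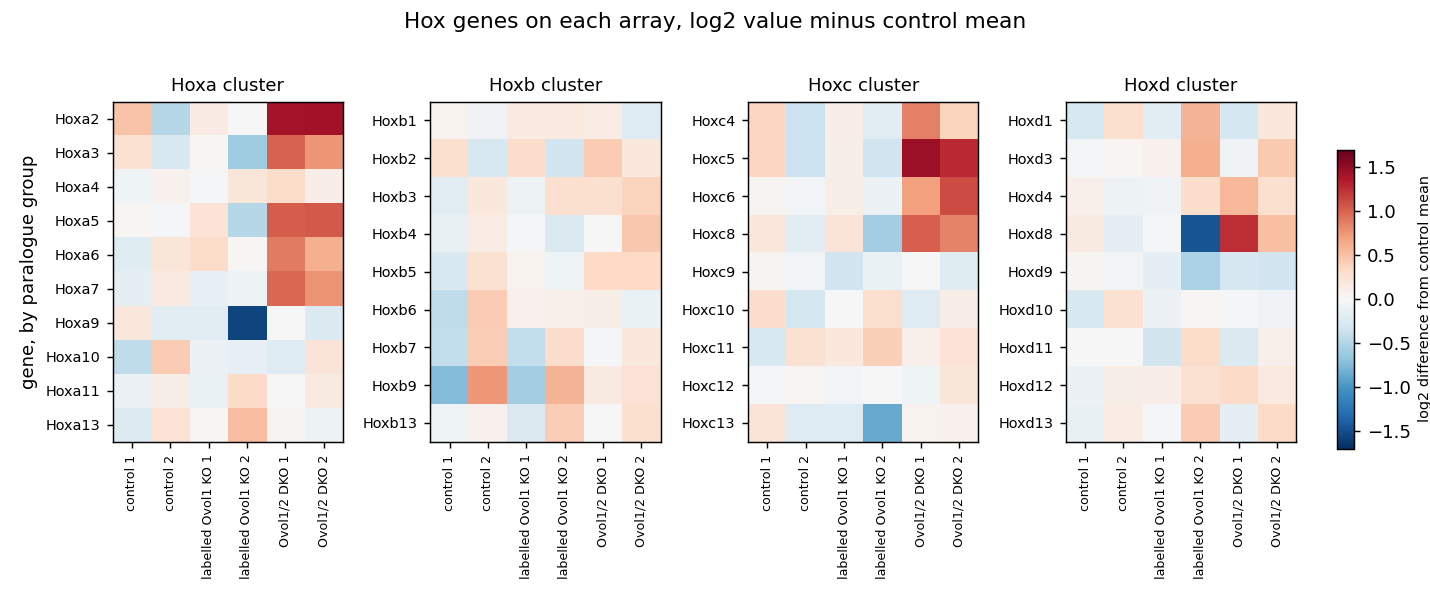
Each row is a Hox gene in cluster order and each column 1 array; colour gives the log2 difference from the mean of the 2 control arrays, from blue (lower) to red (higher), with the scale ending at 1.7. The Ovol1/2 DKO columns are red for Hoxa2 to Hoxa7 (Hoxa4 least), Hoxc4 to Hoxc8 and Hoxd8, and labelled Ovol1 KO array 2 is blue for Hoxa9 and Hoxd8.

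Counted by position, most of the Hox genes that stood apart lay in paralogue groups 5 to 8. Both Ovol1/2 DKO arrays were above the other 4 for 12 Hox genes, which were 4 of the 11 of groups 1 to 4, 8 of the 10 of groups 5 to 8 and 0 of the 16 of groups 9 to 13. No Hox gene was below all 4. Among all genes 12.8% were above and 12% below the other 4 arrays. The median difference from control was 0.30 in groups 1 to 4, 0.87 in groups 5 to 8 and 0.03 in groups 9 to 13, against 0.03 over all genes. By cluster it was 0.48 for Hoxa, 0.20 for Hoxb, 0.17 for Hoxc and 0.08 for Hoxd. The Hoxc median was 0.76 with dim genes left out, and that of Hoxd ran from -0.065 to 0.22 with single arrays left out, so these medians give no order of the clusters.

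The position classes hold different clusters. In groups 5 to 8 the median was 0.87 for the 3 Hoxa genes, 0.93 for the 3 Hoxc genes, 0.88 for Hoxd8 and 0.08 for the 3 Hoxb genes. The mean level of the 10 genes of groups 5 to 8 was 8.04 and 8.18 on the control arrays, 8.16 and 7.83 on the labelled Ovol1 KO arrays, with 8.88 and 8.76 on the Ovol1/2 DKO arrays. Over the 16 genes of groups 9 to 13 it was 6.82 and 7.02, 6.79 and 6.94, and 6.88 and 6.99, with all groups overlapping. The genes of groups 9 to 13 include most of those near background, where a difference is compressed on this scale. These counts and medians describe the members, and no test was made over them.

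Between labelled Ovol1 KO and control no Hox gene passed the test. Of the 37 Hox genes 0 passed limma's adjusted p, where 0% of all genes did, and 0 had an unadjusted p under 0.05, where 0.316% of all genes were higher and 0.451% lower. The groups were apart for 3 higher (Hoxb1, Hoxd3, Hoxd12) and 3 lower (Hoxa9, Hoxc9, Hoxd9) Hox genes, where 8.82% and 10.3% of all genes were. Hoxd12 was above background on no array.

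Hoxa9, a gene of blood progenitors and of the posterior trunk, had the smallest p of Hoxa in this comparison. It was at 8.91 and 8.53 in control, 8.53 and 7.16 in labelled Ovol1 KO, with 8.72 and 8.48 in Ovol1/2 DKO. The difference of labelled Ovol1 KO from control was -0.88 (SE 0.43, limma adjusted p = 0.999), and it rested on labelled Ovol1 KO array 2: without that array it was -0.19. In the other clusters the smallest p belonged to Hoxb1 with a difference of 0.16, to Hoxc13 with -0.54 and to Hoxd9, each with a limma adjusted p of 0.999. For Hoxc13 labelled Ovol1 KO array 2 was under the background level and array 1 above it. Hoxb1 was at 7.13 and 7.02 in control and at 7.24 and 7.24 in labelled Ovol1 KO, and Hoxd9 at 6.29 and 6.20 against 6.08 and 5.71. Both labelled Ovol1 KO arrays were under the background level for Hoxd9, so its level there has only a bound, at least 1.03-fold below control when those arrays are set to the background level.

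Between Ovol1/2 DKO and labelled Ovol1 KO the smallest p-values again belonged to genes of Hoxa and Hoxc; the comparison shares its Ovol1/2 DKO arrays with the one against control. None of the 37 Hox genes passed limma's adjusted p, where 3.15% of all genes did, 628 of 19938. At an unadjusted p under 0.05, 9 were higher and 0 lower, where 7.64% of all genes were higher and 6.41% lower. They were Hoxa2, Hoxa3, Hoxa5, Hoxa6, Hoxa7, Hoxc5, Hoxc6, Hoxc8 and Hoxd8. Both Ovol1/2 DKO arrays lay above both labelled Ovol1 KO arrays for 14 Hox genes, where 24.6% of all genes did so. The one Hox gene with both Ovol1/2 DKO arrays below both labelled Ovol1 KO arrays was Hoxb1, at 7.20 and 6.86 against 7.24 and 7.24, where 3688 of the 19938 genes were so placed.

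Hoxc5 had the smallest p, with a difference of 1.48 (SE 0.30, 95% interval 0.76 to 2.20, limma adjusted p = 0.059). Hoxa7 differed by 0.98 (SE 0.21, limma adjusted p = 0.069) and Hoxa5 by 1.16 (SE 0.27, limma adjusted p = 0.087). The largest difference was that of Hoxd8, 1.63 (SE 0.49, limma adjusted p = 0.178), and without labelled Ovol1 KO array 2, which was under the background level, it was 0.90. In Hoxb the smallest p was that of Hoxb4, a gene of blood stem cells, at 7.49 and 7.75 in control, 7.59 and 7.37 in labelled Ovol1 KO, with 7.63 and 8.07 in Ovol1/2 DKO. Its difference of 0.37 (SE 0.24, limma adjusted p = 0.581) was apart from labelled Ovol1 KO but not from control.

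**Figure D3:**
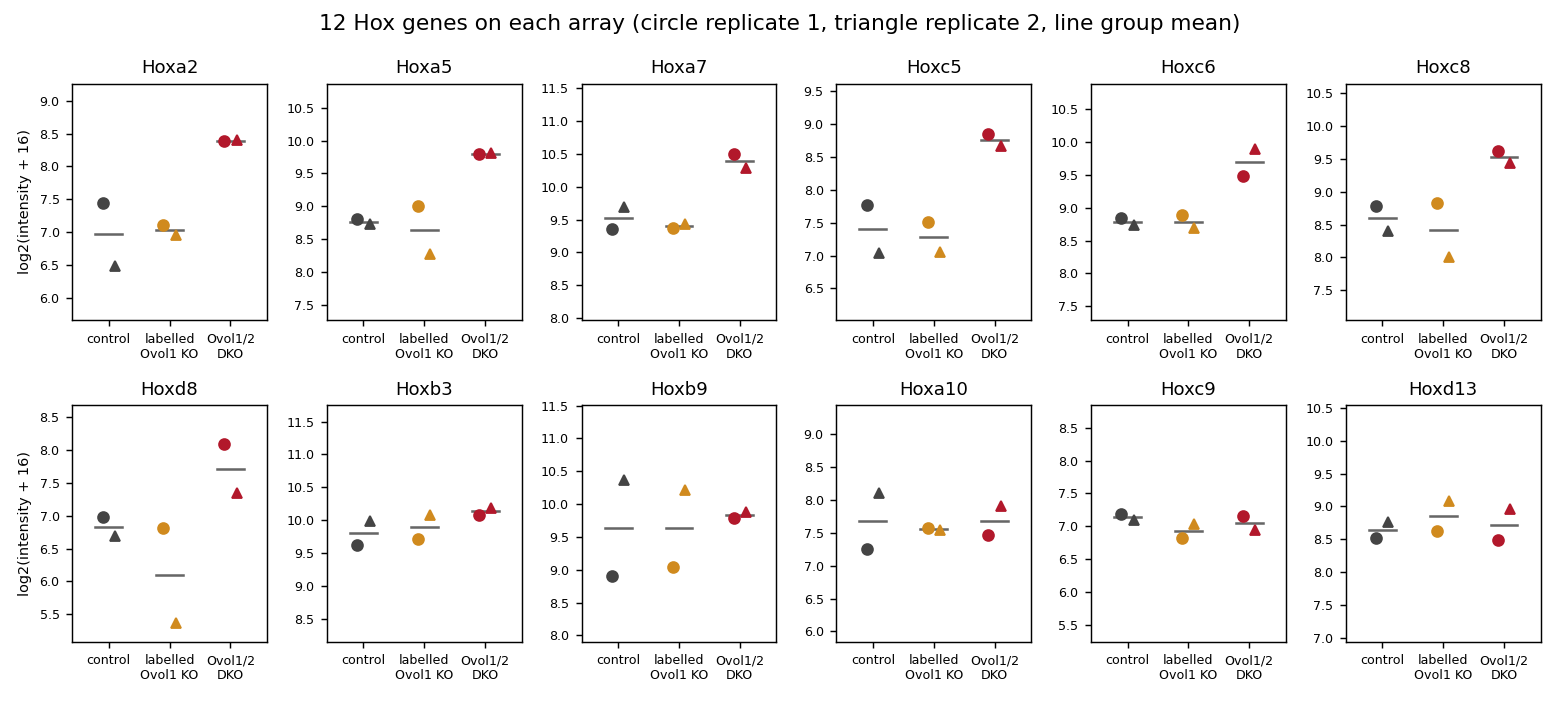
The level, log2(intensity + 16), of 12 Hox genes on each array, with control, labelled Ovol1 KO and Ovol1/2 DKO side by side; circles are replicate 1, triangles replicate 2 and lines group means, and each panel spans 3.6 units around its own centre. In the panels of Hoxa2, Hoxa5, Hoxa7, Hoxc5, Hoxc6, Hoxc8 and Hoxd8 both Ovol1/2 DKO points lie above the other 4; for Hoxb3 they only just do so, and for Hoxb9, Hoxa10, Hoxc9 and Hoxd13 the groups overlap.

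The calls turned on few arrays. With the arrays that lack Xist signal, control 1 and labelled Ovol1 KO 1, both left out, 5 Hox genes rose in Ovol1/2 DKO against control in the limma fit: Hoxa2 by 1.91 (adjusted p = 0.003), Hoxc5 by 1.73 (adjusted p = 0.006), Hoxc8 by 1.13 (adjusted p = 0.040), Hoxa3 by 1.14 (adjusted p = 0.042) and Hoxa5 by 1.07 (adjusted p = 0.046). That fit called 1395 of the 19938 genes, and each of its control and labelled Ovol1 KO groups is 1 array assumed to vary like the Ovol1/2 DKO pair. Against labelled Ovol1 KO the same fit held that group by array 2 alone. Hoxa9 and Hoxd8 were lowest on that array, at 7.16 and 5.37, so their differences there rest on 1 low array. All 5 genes called against control were lower on control array 2 than on control array 1, so leaving out array 1 made their differences larger. The part of the Xist difference in the Hox values was not tested.

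Other cells in the cultures could carry Hox transcripts of their own. In bulk samples fewer cells of a type and less RNA per cell cannot be told apart. Of 12 fibroblast markers, Fap and Lum were above background on no array, and the summed intensity of the 12 was 1286 and 2439 in control, 1369 and 2463 in labelled Ovol1 KO, with 2171 and 2783 in Ovol1/2 DKO, with the lowest sums on the 2 arrays that lack Xist signal. Without Thy1, a choice made after its values were seen, the sum of the other 11 was 1049 and 2204 in control, 1199 and 2230 in labelled Ovol1 KO, with 1402 and 1979 in Ovol1/2 DKO, and the groups overlapped. Over all genes 2.02% passed the limma test against control and 3.15% against labelled Ovol1 KO, and 11090 of the 19938 had a positive difference from control. Of the 12 fibroblast markers, 8 had a positive difference from control, and Pdgfra had the most negative, -0.66. Of these markers 1, Thy1, passed the limma test against control, with a difference of 1.67 (adjusted p = 0.019), and with 1 array left out in turn it passed in 3 of 6 fits, those without control array 1 or a labelled Ovol1 KO array. Against labelled Ovol1 KO, Thy1 (1.90, limma adjusted p = 0.011), the endothelial marker Pecam1 (1.28, limma adjusted p = 0.020) and the keratinocyte factor Trp63 (1.097, limma adjusted p = 0.046) passed; without 1 array at a time Trp63 passed in 0 of 6 fits and the others in 3 of 6. Of the 7 endothelial markers Pecam1 was the only one to pass; Kdr differed by -1.15 from control (limma adjusted p = 0.060) and by -0.08 from labelled Ovol1 KO, and Vwf by -0.11 from labelled Ovol1 KO. The sum of 9 melanocyte markers was 1284 and 1409 in control, 1184 and 903 in labelled Ovol1 KO, with 838 and 704 in Ovol1/2 DKO, with Tyr above background on no array. Of 7 endothelial markers Cdh5, Emcn and Tek, of 7 leukocyte markers Cd207, and of 7 skeletal muscle markers Des and Myh3 were above background on no array. The part of these cell types in the Hox differences was not tested.

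The transcripts that share the clusters were read from a list of 18 noncoding RNAs, of which 10 were measured and 0 passed in either comparison with Ovol1/2 DKO, where 2.02% and 3.15% of all genes did. Hoxaas2, an antisense RNA of the Hoxa cluster, had the smallest p, at 6.70 and 6.68 in control, 6.87 and 6.48 in labelled Ovol1 KO, with 7.41 and 8.19 in Ovol1/2 DKO. Its Ovol1/2 DKO arrays were the highest of the 6, with a difference from control of 1.11 (SE 0.30, limma adjusted p = 0.178). Hottip, an RNA from the posterior end of Hoxa that was chosen after its values were seen, was at 7.08 and 7.38 in control, 7.16 and 7.71 in labelled Ovol1 KO, with 6.61 and 6.86 in Ovol1/2 DKO, the lowest of the 6 (difference from control -0.49, limma adjusted p = 0.675). In all, 3 of the 10 had a positive difference from control, where 11090 of all 19938 genes did. Above background on no array were 5 of the 10, where 4176 of all 19938 genes were, so the signs of those 5 are not read. Whether the array separates the strands is not given in the sources used here. Mature miRNAs of the clusters are shown because they are encoded between Hox genes and fall into families of one seed, bases 2 to 8, given in capitals, from RefSeq.
miR-10a-5p: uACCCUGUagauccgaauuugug
miR-10b-5p: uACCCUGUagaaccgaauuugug
miR-196a-5p: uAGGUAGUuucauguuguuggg
miR-196b-5p: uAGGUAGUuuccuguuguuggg
Both miR-10 miRNAs share the seed ACCCUGU and both miR-196 miRNAs the seed AGGUAGU, a family known to bind Hox transcripts. The probe sets of the miRNA genes, which need not read the mature miRNA, differed from control by -0.08 for Mir10a, -0.02 for Mir10b, 0.02 for Mir196a-1, -0.13 for Mir196a-2 and -0.08 for Mir196b. None passed, and the Mir10a, Mir10b and Mir196a-2 probe sets were under the background level on all arrays.

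Of 12 genes that flank the clusters, among them Evx1 and Evx2, homeobox genes at the posterior ends of Hoxa and Hoxd, 0 passed, where 2.02% of all genes passed against control and 3.15% against labelled Ovol1 KO. Their differences of Ovol1/2 DKO from control had a median of 0.00 and ran from -0.10 for Evx1 to 0.30 for Cbx5. Cbx5, a heterochromatin protein gene beside Hoxc, had the smallest p (limma adjusted p = 0.976).

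The regulators of Hox genes were read from the context lists, whose counts against control stand beside the 2.02% of all genes called. Of 8 Hox cofactors measured of 9 listed, 0 passed, and Meis3 had the smallest p, at 7.77 and 8.41 in control and 6.81 and 6.30 in Ovol1/2 DKO, a difference of -1.53 (SE 0.34, limma adjusted p = 0.102). Of 17 Polycomb genes measured of 19 listed, 0 passed and the median difference was 0.16. Jarid2, which helps to recruit Polycomb repressive complexes, had the smallest p with a difference of 1.17 (limma adjusted p = 0.467). Of 12 Trithorax and H3K27 demethylase genes measured of 13 listed, 0 passed, and Kdm6b had the smallest p with -0.37 (limma adjusted p = 0.691).

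Of 15 genes of the signals that act on Hox clusters, 1 fell, where 279 of the 19938 genes fell and 2.02% were called in either direction. Aldh1a3, which makes retinoic acid, was at 9.85 and 11.91 in control, 11.01 and 11.88 in labelled Ovol1 KO, with 5.23 and 6.90 in Ovol1/2 DKO. Ovol1/2 DKO array 1 was under the background level and array 2 above it. Aldh1a3 fell by 4.82 against control (SE 0.78, limma adjusted p = 0.036) and by 5.38 against labelled Ovol1 KO (limma adjusted p = 0.020). Cyp26b1, which breaks retinoic acid down, was at 7.33 and 7.63 in control, 7.22 and 6.84 in labelled Ovol1 KO, with 8.69 and 8.49 in Ovol1/2 DKO. It rose by 1.56 against labelled Ovol1 KO (limma adjusted p = 0.021), and its difference from control was 1.11 (limma adjusted p = 0.083). With each array left out in turn, the Aldh1a3 call against control held in 1 of 6 fits, without control array 1, and the largest adjusted p was 0.144, without Ovol1/2 DKO array 1; the Aldh1a3 call against labelled Ovol1 KO held in 3 of 6. The Cyp26b1 call against labelled Ovol1 KO held in 2 of 6, those without a control array, and the largest adjusted p was 0.147. Both genes thus stood apart in Ovol1/2 DKO in opposite directions, and whether retinoic acid bears on the Hox values was not tested.

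Of 6 listed genes tied to Hoxc13 in hair 5 were measured, with Dsg4 above background on no array. In Ovol1/2 DKO against control 1 of them fell, Foxn1, the nude gene of hair and thymus (limma adjusted p = 0.009). Among all 19938 genes 279 fell by the same test. Against labelled Ovol1 KO 2 of the 5 fell, Foxn1 and Foxq1, where 381 of all genes did. Foxn1 was at 8.66 and 8.73 in control, 9.38 and 8.57 in labelled Ovol1 KO, with 5.80 and 5.43 in Ovol1/2 DKO. Both Ovol1/2 DKO arrays were under the background level, so Foxn1 was at least 5.66-fold lower than in control and at least 6.85-fold lower than in labelled Ovol1 KO, with those arrays set to the background level. Foxq1 was under it on both Ovol1/2 DKO arrays too, and fell by at least 2.81 on the log2 scale against labelled Ovol1 KO (limma adjusted p = 0.034); against control it was at least 3.62-fold lower and did not pass (limma adjusted p = 0.144). Foxn1 kept its call against control in 5 of 6 fits with 1 array left out, with an adjusted p of 0.056 without Ovol1/2 DKO array 2, and Foxq1 its call against labelled Ovol1 KO in 2 of 6, those without a control array. Hoxc13 itself differed from control by 0.06 in the same arrays.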

How the data were processed

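Skin keratinocytes were profiled on 6 one-colour Affymetrix arrays. The authors deposited 1 linear probe set intensity per array, made with Affymetrix Expression Console 1.1.1 and PLIER 2.0 per the submitters' processing notes; the genome build is not given in the sources used here. Intensities were not normalized further (array medians 103.3 to 109.8), and 16 was added before log2. Of 35556 probe sets 21789 carry 1 gene symbol, 1621 several and 12146 none in the platform annotation; 91 identifiers had no match in the RefSeq table of GRCm38.p6, and symbols were updated through it. Per gene the probe set with the highest mean was kept, which chose among several for 999 of 19938 genes. limma 3.58.1 in R 4.3.3 fitted 3 group means to all 6 arrays (lmFit, eBayes, 3 residual and 3.68 prior degrees of freedom), with Benjamini-Hochberg adjustment per comparison over all genes at 0.05. Over all genes the standard error of a difference had a median of 0.24; 2 arrays a group limit the precision. The fit was tested on simulated data. Arrays do not give a sequencing depth.

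Named genes are every Hox gene, with full values for members that passed or, in a cluster and comparison where none did, the member with the smallest p; context lists were treated likewise. The values of further members were chosen after they were seen and are given as description. The members, lists and alternatives were chosen with earlier results of these data known. Alternatives were the replicate number as a block, each array left out, both arrays without Xist signal left out, 2-group fits, quantile normalization, median centring, other offsets, no dim genes, every probe set and other background levels. Promoter and miRNA sequences are RefSeq's.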

Additional observations from a re-analysis of the deposited data

How the results depend on the processing

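Of 1647 differences recomputed for the 37 Hox genes, 1498 kept direction and call, 28 became calls, 121 uncalled ones changed sign and 0 called ones reversed; the cause of the changes was not tested. In Ovol1/2 DKO against control, where 0 Hox genes were called, the replicate number as a block gave 1 (Hoxc5), the fit without both arrays that lack Xist signal 5, and leaving out single arrays 0 to 2. Against labelled Ovol1 KO the block gave 5, both arrays left out 7, only the groups compared 2, median centring 1, dim genes left out 1 and single arrays left out 0 to 2. The labels do not say that the replicate numbers mark litters or days, the arrays share only a number, and deviations of same-numbered arrays correlated at 0.26, 0.49 and 0.19; the block moved the calls over all genes from 403 to 597 and from 628 to 1022. Of the context genes 2 were called against control, with 11 when both arrays were left out, 1 with only the groups compared, 1 with offset 64 and 0 to 3 with single arrays left out. Against labelled Ovol1 KO 4 were called, with 15, 7 with the block, 2 with offset 64 and 1 to 5. Over all genes offset 64 called 155 and 311, and both arrays left out 1395 and 1508, with 20 between labelled Ovol1 KO and control; single arrays left out called 99 to 455 and 135 to 831.

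Medians against control moved to 0.76 for Hoxc with dim genes left out, and with both arrays left out to -0.043 for Hoxd and 0.15 for paralogue groups 1 to 4. Against labelled Ovol1 KO, Hoxc moved to 0.81 with both left out, 0.37 with offset 64 and 0.78 without dim genes, Hoxd to -0.080 with both left out and -0.083 without dim genes, groups 1 to 4 to 0.12 and groups 9 to 13 to -0.16 with both left out. Labelled Ovol1 KO minus control moved to 0.31 for Hoxd with both left out. With single arrays left out, medians against control ran from -0.065 to 0.22 for Hoxd, 0.15 to 0.38 for groups 1 to 4 and -0.048 to 0.19 for groups 9 to 13. Against labelled Ovol1 KO they ran from 0.33 to 0.84 for Hoxa, 0.29 to 0.81 for Hoxc, -0.080 to 0.12 for Hoxd, 0.12 to 0.30 for groups 1 to 4 and -0.16 to 0.11 for groups 9 to 13. Between labelled Ovol1 KO and control they ran from -0.27 to 0.10 for Hoxc, -0.062 to 0.30 for Hoxd and -0.11 to 0.26 for groups 9 to 13. The count of Hox genes above background fell from 26 to 11 with the 75th percentile as the level. Signal near background limits the posterior Hoxc and Hoxd genes most.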

Other observations

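A probe set that carries both Hoxb7 and Hoxb8 as symbols is the array's reading of Hoxb8, which was left out of the 37 genes. It was at 7.85 and 9.02 in control, at 8.32 and 8.40 in labelled Ovol1 KO, and at 8.70 and 8.46 in Ovol1/2 DKO. The control arrays lay on both sides of the other 4, and the difference of Ovol1/2 DKO from control was 0.14 (SE 0.39), far inside the spread of the control pair.

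Other homeobox and T-box genes of skin were read beside the Hox genes from a list of 15, of which 14 were measured and 0 passed the limma test, where 2.02% of all genes passed against control and 3.15% against labelled Ovol1 KO. Irx4, an Iroquois homeobox gene, had the smallest p against control. It was at 7.70 and 5.72 in control, at 7.49 and 5.39 in labelled Ovol1 KO, and at 9.12 and 9.64 in Ovol1/2 DKO, a difference from control of 2.67 (SE 0.82, limma adjusted p = 0.246). Within control and labelled Ovol1 KO the higher Irx4 array was the one without Xist signal. Satb1, a chromatin organiser of epidermis chosen here after its values were seen, was split the same way, at 9.12 and 8.15, then 8.96 and 7.45, against 9.79 and 10.15 in Ovol1/2 DKO, a difference of 1.34 (limma adjusted p = 0.439). Dlx3 and Dlx5, distal-less genes of epidermis and hair also chosen after their values were seen, stood out on labelled Ovol1 KO array 1 alone. There they were at 9.64 and 9.33, where the other 5 arrays ran from 6.89 to 7.57 for Dlx3 and from 6.29 to 7.31 for Dlx5.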
